A study of Mus musculus with 6 samples.

Results

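The 10 genes described here mark migrating neuroblasts and dividing cells beside the lateral ventricle, and were followed in dorsal striatum of Lrrk2 knock-in and wild-type mice. They were taken by gene symbol, from a list drawn up with earlier results of these data known, and all 10 were found among the 23067 genes of the deposited expression table. The 3 knock-in libraries came from animals homozygous for G2019S, a change in the kinase LRRK2 linked to Parkinson's disease, and the 3 wild-type libraries from animals with 2 unaltered copies of Lrrk2. All 6 samples were dorsal striatum dissected at postnatal day 21 and titled male, with 1 bulk RNA library each and no other allele or agent in the labels. The series addresses glutamate receptor trafficking in striatum, and its one comparison is knock-in against wild type. Levels are FPKM, the authors' value per gene and library scaled for transcript length and library size. Differences are knock-in minus wild type on the log2(FPKM + 1) scale, and triplets of values are in order of replicates 1, 2 and 3.

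The subventricular zone lines the lateral ventricle next to the striatum and goes on making neurons after birth. Its stem cells give rise to rapidly dividing transit-amplifying cells, and these to neuroblasts that migrate towards the olfactory bulb. The Dlx genes, homeobox transcription factors of the ventral forebrain, direct the GABAergic fate of these cells and stay on in some mature GABAergic neurons. Within the striatum itself, oligodendrocyte precursors are among the main dividing cells at this age. In bulk tissue, fewer cells of a type and less RNA per cell cannot be told apart.

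The libraries were close in total, with 324300 to 335508 summed FPKM in knock-in and 314146 to 323715 in wild type. Every knock-in total was nonetheless above every wild-type total. The libraries differed in RNA of the tissues around the striatum. Slc17a7, a glutamate transporter of synaptic vesicles in cortical neurons, stood at 29.9, 25.2 and 3.41 FPKM in knock-in and at 11.0, 3.55 and 2.73 FPKM in wild type. Ttr, the transthyretin of choroid plexus, was at 10.9, 13.5 and 2.12 FPKM in knock-in and at 16.2, 374 and 11.8 FPKM in wild type. The striatal marker Ppp1r1b, which encodes DARPP-32, averaged 768 ± 15.8 FPKM in knock-in and 796 ± 37.4 FPKM in wild type (SD, n = 3 each). Xist, the RNA of the inactive X chromosome of female cells, lay at 27.2 to 39.3 FPKM in knock-in and 31.4 to 33.0 FPKM in wild type, against the titles of all 6 libraries. Lrrk2 itself averaged 11.9 ± 0.579 FPKM in knock-in and 11.3 ± 0.625 FPKM in wild type, which does not check the labels, because a changed codon need not alter the amount of transcript. The table holds no read counts and the depth of each library is unknown, so precision rests on the spread between libraries.

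Of the 10 genes, 7 were on average lower in knock-in striatum and 3 were at nearly the same level. The lower ones were Igfbpl1, Sox11, Cd24a, Dlx1, Dlx2, Mki67 and Top2a, with ratios of mean FPKM from 0.629 for Igfbpl1 to 0.820 for Dlx2. Dcx, Dlx5 and Dlx6 had ratios of 1.03, 1.01 and 1.02. In 5 of the lower genes, Igfbpl1, Sox11, Dlx2, Mki67 and Top2a, every knock-in library lay below every wild-type library. Over all 23067 genes, 7.04% did so. The groups of Dlx2 and Top2a were only 0.02 and 0.01 FPKM apart. None of the 10 passed the test after adjustment over all genes.

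The test was limma on log2(FPKM + 1) with Benjamini-Hochberg adjustment over the 14156 genes averaging 1 FPKM or more, and an adjusted p under 0.05 made a call. Of the set, 9 genes entered it. Mki67, with a mean of 0.987 FPKM over the 6 libraries, was just under the minimum and was fitted with all 23067 genes instead, while Top2a, the next lowest, passed at 1.25 FPKM. In limma 0 of the 9 were called, against 3 of all genes tested (0.0212%). The adjusted p of each of the 9 was 0.997 in limma. Mki67 was not called either (adjusted p = 0.968 in limma), where 0.0173% of the 23067 genes were. At an unadjusted p under 0.05, 5 of the 9 passed, all lower, where 3.02% of all tested genes passed as lower. With all 23067 genes it was 6 of 10, where 3.53% of genes passed. The count of the 9 changed when 1 library was left out, and each such fit also had fewer libraries to test with. It was 1, 6 and 2 without knock-in replicate 1, 2 or 3. Without wild-type replicate 1, 2 or 3 it was 2, 5 and 1. The share of all genes at this p in these fits is not given here.

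Groups that did not overlap were counted as a second description. They numbered 4 of the 9 tested, all lower, where 6.58% of tested genes did not overlap as lower and 2.92% as higher. Over all 10 it was 5, where 7.04% of the 23067 genes did not overlap as lower. The median difference of the 9 was -0.22, against -0.01 over all genes tested. Of the 9, 6 were below 0, as were 56.4% of tested genes, and 7 of 10 with no filter, where 56.2% of genes were. With quantile normalization only Igfbpl1 and Sox11 of the 9 did not overlap, and Dlx2 and Top2a, whose gaps are 0.02 and 0.01 FPKM, did.

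**Figure D1:**
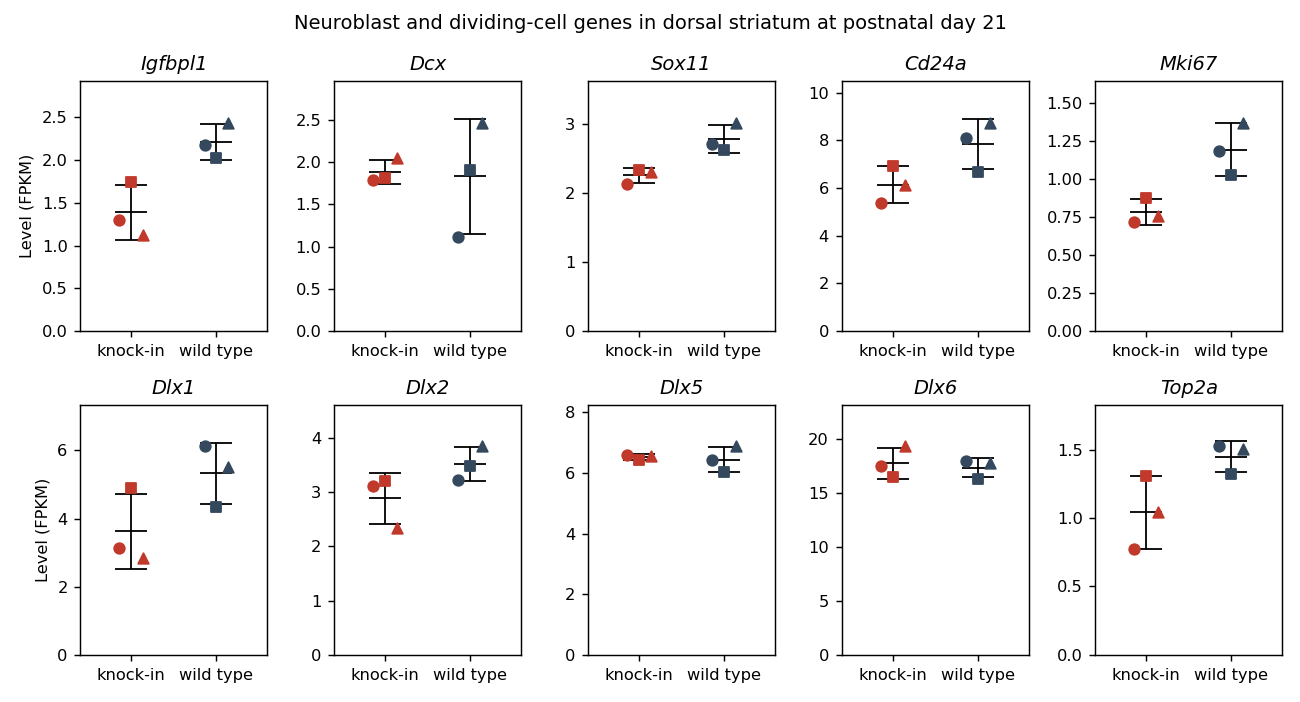
Level (FPKM, y axis from 0) of each of the 10 genes in the 3 knock-in (red, left) and 3 wild-type (dark, right) libraries, with circles, squares and triangles for replicates 1, 2 and 3, and bars for the mean and SD. All red points lie below all dark points for Igfbpl1, Sox11, Mki67, Dlx2 and Top2a, and for Dcx, Dlx5 and Dlx6 the means nearly coincide.

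FPKM is scaled for length, so levels can also be ranked between genes. Dlx6 was highest, at 17.5 ± 1.09 FPKM over the 6 libraries (SD), higher than 81.0% of tested genes. Cd24a at 6.99 ± 1.24 FPKM and Dlx5 at 6.48 ± 0.279 FPKM followed and overlapped each other. Dlx1 at 4.48 ± 1.29 FPKM overlapped both Dlx5 and Dlx2, the last at 3.20 ± 0.497 FPKM. Sox11 at 2.52 ± 0.324 FPKM, Dcx at 1.85 ± 0.438 FPKM and Igfbpl1 at 1.80 ± 0.510 FPKM came next, each overlapping its neighbour. Top2a at 1.25 ± 0.289 FPKM and Mki67 at 0.987 ± 0.254 FPKM were lowest and overlapped. The order of the means turned with the group for Cd24a and Dlx5, at 6.14 and 6.53 FPKM in knock-in and 7.83 and 6.44 FPKM in wild type. It also turned for Igfbpl1 and Dcx, at 1.39 and 1.88 FPKM in knock-in and 2.21 and 1.83 FPKM in wild type. The markers most restricted to neuroblasts and to division thus sat in the low range of detected genes, where log2(FPKM + 1) understates a change.

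Igfbpl1 encodes a secreted protein related to the insulin-like growth factor binding proteins and is a neuroblast marker. It stood at 1.30, 1.75 and 1.12 FPKM in knock-in and at 2.17, 2.02 and 2.43 FPKM in wild type. The highest knock-in library, replicate 2, was below the lowest wild-type library. The means were 1.39 ± 0.322 FPKM in knock-in and 2.21 ± 0.210 FPKM in wild type (SD, n = 3 each), a ratio of 0.629. Its log2 difference was -0.43 (SE 0.11), and the fold on the log2(FPKM + 1) scale, used for all intervals here, had a 95% interval of 0.623 to 0.882. It ranked 56th of the 14156 genes by p (unadjusted p = 0.00445 in limma) and was not called. An exact two-sided permutation test of 3 against 3 libraries gave p = 0.1, the smallest this design allows, as it did for each of the 5 genes whose groups did not overlap.

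Dcx, doublecortin, binds microtubules in migrating neuroblasts and is the usual marker of newly made neurons. It stood at 1.79, 1.81 and 2.04 FPKM in knock-in and at 1.12, 1.91 and 2.46 FPKM in wild type. The wild-type libraries enclosed all the knock-in ones, with replicate 1 lowest and replicate 3 highest. The log2 difference was 0.05 (SE 0.17), and the 95% interval of the fold, 0.788 to 1.37, leaves room for a decrease like that of Sox11. Without wild-type replicate 1 the difference was -0.14. Igfbpl1 and Dcx, both neuroblast markers, stood at 0.725, 0.965 and 0.550 FPKM of Igfbpl1 per FPKM of Dcx in knock-in and 1.94, 1.06 and 0.987 in wild type. These ratios did not overlap (exact permutation p = 0.1, adjusted p = 0.32 over 8 ratios compared).

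Sox11 encodes a SoxC transcription factor that turns on neuronal genes in immature neurons. It stood at 2.12, 2.33 and 2.30 FPKM in knock-in and at 2.71, 2.62 and 3.01 FPKM in wild type. The groups did not overlap, and the knock-in libraries were close together, with a coefficient of variation of 4.94%. Sox11 had a log2 difference of -0.22 (SE 0.07), a fold of 0.769 to 0.965 at 95% (adjusted p = 0.997 in limma). Its close relative Sox4, another SoxC gene, was also lower in every knock-in library. Sox4 was at 4.19, 4.21 and 3.87 FPKM in knock-in and at 4.84, 4.97 and 5.15 FPKM in wild type, a log2 difference of -0.23 (SE 0.06) that was not called.

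Cd24a encodes a cell surface glycoprotein of neuroblasts that ependymal cells also carry. It stood at 5.36, 6.94 and 6.14 FPKM in knock-in and at 8.08, 6.67 and 8.74 FPKM in wild type. The groups overlapped, because knock-in replicate 2 lay above wild-type replicate 2. On the log2 scale it differed by -0.30 (SE 0.11), a fold of 0.674 to 0.973 at 95%. Without either of those libraries the groups no longer overlapped.

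The 4 Dlx genes lie in pairs, each pair transcribed towards each other. On GRCm38 in GENCODE release M21, Dlx1 (chromosome 2, 71528113 to 71533981) and Dlx2 (chromosome 2, 71543408 to 71546754) are 9426 bases apart. Dlx6 (chromosome 6, 6863334 to 6868568) and Dlx5 (chromosome 6, 6877805 to 6882085) are 9236 bases apart. Dlx1 and Dlx2 act early, in progenitors and neuroblasts, and Dlx5 and Dlx6 later in the lineage. In these libraries both genes of the first pair were lower on average in knock-in, and the means of both genes of the second were nearly equal.

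Dlx1 stood at 3.15, 4.89 and 2.85 FPKM in knock-in and at 6.12, 4.35 and 5.51 FPKM in wild type. Knock-in replicates 1 and 3 were below all wild-type libraries, and knock-in replicate 2 lay above wild-type replicate 2. The log2 difference of -0.47 (SE 0.18) was the largest of the 10 in size, a fold of 0.538 to 0.975 at 95%. With 0.1 rather than 1 added to FPKM, Igfbpl1 differed more (-0.65) than Dlx1 (-0.57). Dlx2 stood at 3.10, 3.20 and 2.34 FPKM in knock-in and at 3.23, 3.47 and 3.84 FPKM in wild type. All knock-in libraries were below the wild-type ones, the nearest, replicate 2, by 0.02 FPKM. Its log2 difference was -0.22 (SE 0.10), and its 95% interval of the fold, 0.723 to 1.02, included no change.

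Dlx5 stood at 6.60, 6.42 and 6.57 FPKM in knock-in and at 6.43, 6.02 and 6.87 FPKM in wild type. The difference was 0.02 on the log2 scale (SE 0.06), with a fold of 0.914 to 1.12 at 95%, narrow enough to leave out the mean decrease seen for Dlx1. Dlx6 stood at 17.4, 16.4 and 19.3 FPKM in knock-in and at 17.9, 16.3 and 17.7 FPKM in wild type, a log2 difference of 0.03 (SE 0.07) with a fold of 0.906 to 1.15. The knock-in and wild-type values of both genes were interleaved. Both signs turned without wild-type replicate 2 (-0.022 for Dlx5 and -0.0094 for Dlx6), and that of Dlx6 also without knock-in replicate 3 (-0.028).

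Ratios between the pairs compare the genes within a library and do not depend on its scaling. Dlx2 per Dlx5 was 0.470, 0.499 and 0.356 in knock-in and 0.502, 0.576 and 0.559 in wild type. These ratios did not overlap (exact permutation p = 0.1, adjusted p = 0.32 over the 8 ratios). Dlx1 per Dlx6 was 0.180, 0.298 and 0.148 in knock-in and 0.342, 0.267 and 0.311 in wild type, and overlapped through replicate 2 of each group (exact permutation p = 0.2). The other ratios between the pairs, Dlx2 per Dlx6 and Dlx1 per Dlx5, overlapped as well (exact permutation p = 0.2 each). Dlx2 per Dlx6 averaged 0.165 in knock-in and 0.203 in wild type, and Dlx1 per Dlx5 0.558 in knock-in and 0.825 in wild type. Within the second pair, Dlx5 per Dlx6 averaged 0.370 ± 0.0259 in knock-in and 0.372 ± 0.0148 in wild type (SD, n = 3 each). With 3 libraries a group, this test cannot pass 0.05 for any ratio.

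Noncoding RNAs lie beside both Dlx pairs. Dlx1as, an antisense RNA that shares 335 exon bases with Dlx1 on the opposite strand, stood at 1.33, 1.27 and 1.31 FPKM in knock-in and at 1.63, 1.35 and 1.74 FPKM in wild type. The groups did not overlap, and the log2 difference of -0.15 was not called. Dlx6os1, whose span overlaps Dlx6 but shares 0 exon bases with it, stood at 4.68, 4.44 and 5.59 FPKM in knock-in and at 4.89, 4.15 and 5.06 FPKM in wild type, a log2 difference of 0.05. A second row with the symbol Dlx6os1 (ENSMUSG00000098326), too low to be tested, averaged 0.232 ± 0.223 FPKM in knock-in and 0.388 ± 0.462 FPKM in wild type (SD, n = 3 each), with overlap. Dlx6os2 shares 104 exon bases with Dlx6 and averaged 0.337 FPKM in knock-in and 0.334 FPKM in wild type. The strand setting of the counting is not given in the sources used here, so reads of a gene and its antisense partner may be mixed.

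**Figure D2:**
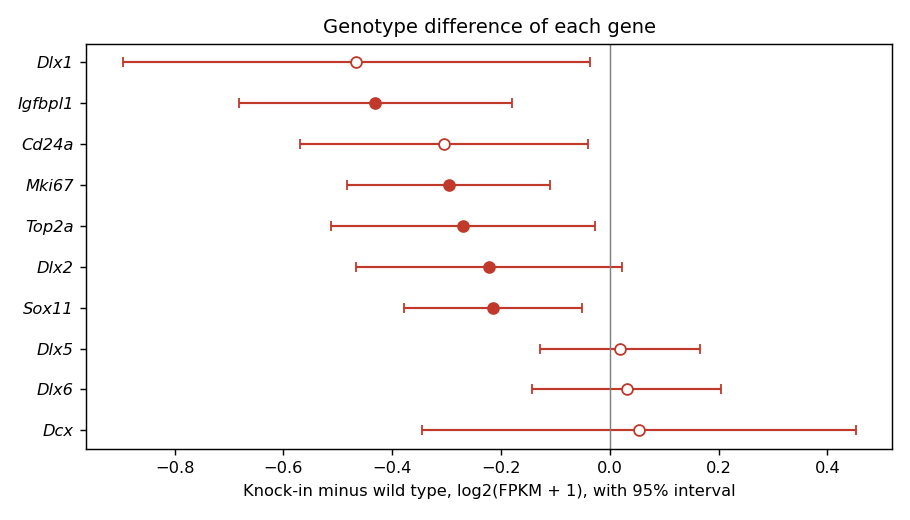
Difference between knock-in and wild type (x axis, log2(FPKM + 1) units) of each of the 10 genes with its 95% interval from limma, filled where the 3 knock-in and 3 wild-type libraries do not overlap. In all, 7 genes lie left of 0, from -0.22 to -0.47, and Dlx5, Dlx6 and Dcx lie within 0.06 of it. Mki67 comes from the fit of all 23067 genes.

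Mki67 and Top2a mark cells in division. Mki67 encodes the Ki-67 protein that coats mitotic chromosomes, and Top2a the DNA topoisomerase that untangles them. Genes of this kind are typically switched on late in the cell cycle through CCAAT boxes, bound by NF-Y, and a cell cycle homology region of the form TTTGAA, bound by the MuvB complex. The 250 bases before the start of each gene, from RefSeq on GRCm38.p6, are shown because these motifs occur repeatedly in both. Capitals mark CCAAT or its complement ATTGG, and TTTGAA or its complement TTCAAA, and no matches overlap in these windows. Mki67 lies at chr7:135716380-135716629 on the minus strand and Top2a at chr11:99024190-99024439 on the minus strand.
Mki67: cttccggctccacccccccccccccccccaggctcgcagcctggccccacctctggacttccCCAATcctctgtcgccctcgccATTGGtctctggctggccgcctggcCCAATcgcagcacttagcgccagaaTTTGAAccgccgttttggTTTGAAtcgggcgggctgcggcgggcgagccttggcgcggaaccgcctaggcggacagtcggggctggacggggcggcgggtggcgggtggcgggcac
Top2a: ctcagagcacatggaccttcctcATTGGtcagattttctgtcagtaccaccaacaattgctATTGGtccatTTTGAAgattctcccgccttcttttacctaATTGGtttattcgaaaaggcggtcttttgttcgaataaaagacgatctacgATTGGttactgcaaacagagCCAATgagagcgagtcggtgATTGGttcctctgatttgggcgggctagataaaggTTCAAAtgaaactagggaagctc

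The Mki67 window held 3 CCAAT and 2 TTTGAA matches on either strand, and the Top2a window 6 and 2. Of 9622 promoters of tested genes with an entry in the same table, 36.3% held CCAAT, 9.55% TTTGAA and 3.83% both. Of the 10 genes, 6 had an entry. Sox11 held 1 match of each kind, Dlx2 held 1 CCAAT, its first base at position -74, where -1 is the base before the start, and Dlx1 held 0 of either. Dcx, with 2 windows, held 1 CCAAT, at position -196, in one of them and 0 matches in the other. Among other tested genes of G2 and M phase with an entry, 4 of 9 held both motifs (Ccnb2, Ccnf, Cdc20 and Kif11), as did 1 of 15 tested genes of S phase. Genes of these 2 lists under a mean of 1 FPKM were not searched. A match describes the letters in this window only.

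Mki67 stood at 0.717, 0.877 and 0.754 FPKM in knock-in and at 1.18, 1.02 and 1.37 FPKM in wild type. All knock-in libraries were below all wild-type libraries. The means were 0.783 ± 0.0835 FPKM in knock-in and 1.19 ± 0.172 FPKM in wild type (SD, n = 3 each), a ratio of 0.657. Its log2 difference was -0.30 (SE 0.08), a fold of 0.716 to 0.927 at 95%. This interval is for FPKM + 1 and does not bound the ratio of mean FPKM, which lies outside it. Mki67 had an unadjusted p of 0.00703 in limma and was not called over 23067 genes. The groups were also apart under quantile normalization.

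Top2a stood at 0.774, 1.31 and 1.05 FPKM in knock-in and at 1.52, 1.32 and 1.51 FPKM in wild type. The groups were separated by 0.01 FPKM, between replicate 2 of each. Its log2 difference was -0.27 (SE 0.10), a fold of 0.701 to 0.982 at 95% (adjusted p = 0.997 in limma). Top2a per Mki67 averaged 1.32 ± 0.214 in knock-in and 1.23 ± 0.107 in wild type, and the ratios overlapped.

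Other genes of the cell cycle were mostly at very low levels. Of 36 listed genes of G2 and M phase, 23 were under a mean of 1 FPKM, Cdk1, Ccnb1, Aurkb and Birc5 among them. Of the 13 tested, 12 were lower and 1 higher, with a median difference of -0.16. In limma 0 were called, and 2 had an unadjusted p under 0.05, both lower. Of the 13, 4 did not overlap as lower, against 6.58% of tested genes. Of all 36 measured it was 9, against 7.04% of the 23067 genes. Aurka, a kinase of the mitotic spindle, stood at 0.934, 1.22 and 0.858 FPKM in knock-in and at 1.44, 1.24 and 1.35 FPKM in wild type. Ccnf, a cyclin that serves in a ubiquitin ligase, averaged 1.50 ± 0.0695 FPKM in knock-in and 1.81 ± 0.0628 FPKM in wild type, and Plk1, a mitotic kinase, 1.42 ± 0.170 FPKM in knock-in and 1.69 ± 0.0638 FPKM in wild type (SD, n = 3 each). The groups of these 3 genes did not overlap, though in Aurka by only 0.015 FPKM.

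Of 30 genes of S phase, 18 were tested, 14 lower and 4 higher, with a median of -0.08. No gene was called in limma and 2 had an unadjusted p under 0.05. Of the 18, 3 did not overlap as lower, against 6.58% of tested genes. Mcm6, a subunit of the replicative helicase, stood at 1.67, 1.73 and 1.42 FPKM in knock-in and at 2.03, 2.03 and 1.96 FPKM in wild type. Rrm2, which makes deoxyribonucleotides, averaged 1.68 ± 0.348 FPKM in knock-in and 2.25 ± 0.201 FPKM in wild type, with overlap. Mcm3, another helicase subunit, averaged 1.29 ± 0.0854 FPKM in knock-in and 1.55 ± 0.118 FPKM in wild type (SD, n = 3 each), without overlap.

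Upstream of the neuroblasts, 22 of 25 tested genes of neural stem and transit-amplifying cells were lower and 3 higher, with a median of -0.12. By limma 0 were called and 4 had an unadjusted p under 0.05. Of the 25, 6 did not overlap as lower, against 6.58% of tested genes. Mycn, a transcription factor of growing progenitors, averaged 2.69 ± 0.246 FPKM in knock-in and 3.33 ± 0.102 FPKM in wild type. Thbs4, a thrombospondin of subventricular astrocytes, stood at 4.09, 3.69 and 2.59 FPKM in knock-in and at 8.10, 5.92 and 4.21 FPKM in wild type. The groups of both were apart, but neither was called (adjusted p = 0.997 each in limma). Several genes of this list, Gfap and Slc1a3 among them, are also expressed by striatal astrocytes.

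Further neuroblast genes were divided. Of 23 tested, 13 were lower and 10 higher, with a median of -0.04, near that of all genes. In limma 0 were called and 1, Sox4, had an unadjusted p under 0.05. Besides Sox4, Marcksl1, a regulator of actin in young neurons, averaged 66.2 ± 13.8 FPKM in knock-in and 81.4 ± 4.17 FPKM in wild type, and Dpysl3, a collapsin response mediator, 6.94 ± 0.459 FPKM in knock-in and 8.08 ± 1.001 FPKM in wild type (SD, n = 3 each). The groups of Marcksl1 and Dpysl3 overlapped. These genes and Sox4 are named for the lowest p of the list and do not stand for its 10 higher genes. Many of these genes, such as Tubb3 at 175 FPKM in knock-in and 167 FPKM in wild type, are expressed by neurons in general. Genes of forebrain interneurons, which also use Dlx factors, were close to even, with 11 of 19 lower and a median of -0.03. In limma 0 were called and 1, Prox1, had an unadjusted p under 0.05. Prox1, a transcription factor of interneuron subsets, averaged 1.99 ± 0.167 FPKM in knock-in and 2.37 ± 0.101 FPKM in wild type. Calb2, calretinin, averaged 2.52 ± 0.617 FPKM in knock-in and 3.58 ± 0.977 FPKM in wild type, and Sp9, a zinc finger factor of striatal and olfactory neurons, 3.56 ± 0.182 FPKM in knock-in and 3.94 ± 0.429 FPKM in wild type (SD, n = 3 each). The groups of Calb2 and Sp9 overlapped. Prox1, Calb2 and Sp9 had the lowest p of this list, in which 8 genes were higher.

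**Figure D3:**
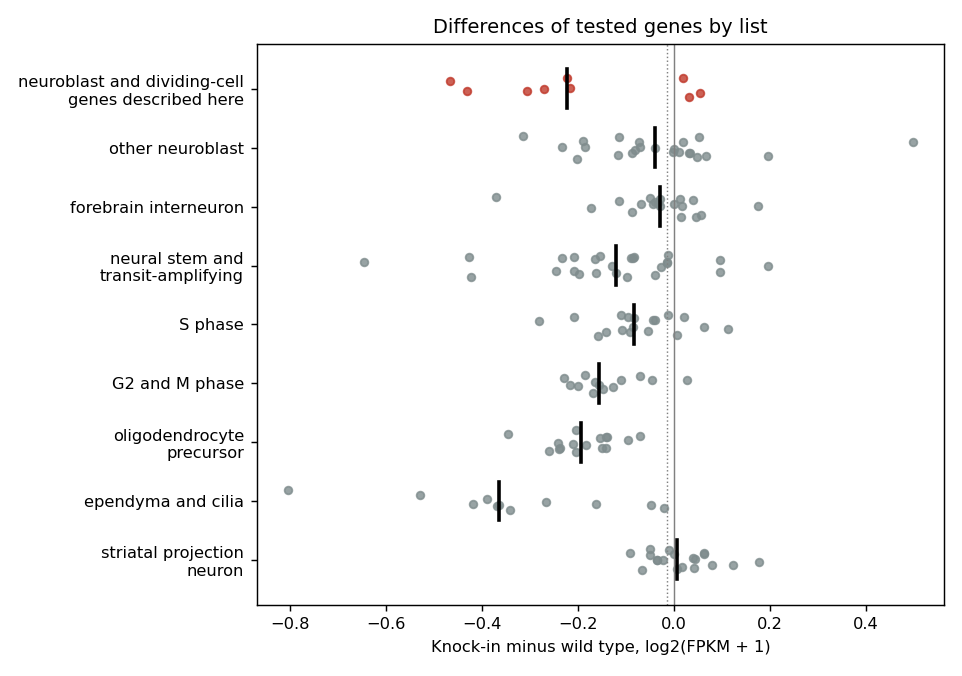
Difference between knock-in and wild type (x axis, log2(FPKM + 1) units) of each tested gene in 9 lists, with a bar at the median of each list and a dotted line at the median of all tested genes (-0.01). The genes described here (red) have a median of -0.22, G2 and M phase genes -0.16, ependymal genes -0.36 and striatal projection neuron genes 0.01.

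The knock-in libraries were not equally low, and genes of other cells of the ventricular wall and of glial precursors were lower in the same libraries. Relative to the wild-type mean, the median of the 9 tested genes was -0.27, -0.09 and -0.26 in knock-in and -0.0014, -0.08 and 0.09 in wild type. Replicate 2 of knock-in was thus close to replicate 2 of wild type.

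Ependymal and cilia genes were likewise lowest in knock-in replicates 1 and 3, with medians of -0.40, -0.13 and -0.40 in knock-in and 0.06, -0.06 and 0.01 in wild type. All 11 tested were lower, 5 without overlap, where 6.58% of tested genes did not overlap as lower. In limma 0 were called and 7 had an unadjusted p under 0.05. The 20 listed genes summed to 34.8 to 43.6 FPKM in knock-in and 46.2 to 51.6 FPKM in wild type. Foxj1, the master regulator of motile cilia, stood at 5.49, 6.90 and 4.73 FPKM in knock-in and at 7.93, 7.69 and 7.14 FPKM in wild type. Fam183b, Rsph1 and Ak7, genes of motile cilia, had ratios of mean FPKM of 0.452, 0.703 and 0.678. None of the defining markers Foxj1, Rsph1, Ccdc153 and Tmem212 was near 0, and the lowest, Ccdc153, was at 1.68 to 3.09 FPKM in knock-in and 3.06 to 4.14 FPKM in wild type. The part of the ependyma in the values of the neuroblast and dividing-cell genes was not tested.

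All 16 genes listed for oligodendrocyte precursors were lower, 6 without overlap, where 6.58% of tested genes did not overlap as lower. The list includes genes of committed precursors, such as Gpr17. In limma 0 were called and 4 had an unadjusted p under 0.05. The 16 genes summed to 260 to 351 FPKM in knock-in and 336 to 375 FPKM in wild type. Most of the sum was Olig1, Bcas1, Sox10, Gpr17 and Sox8, so it does not measure dividing precursors alone. The medians of the list were -0.12, -0.07 and -0.38 in knock-in and -0.02, 0.05 and -0.03 in wild type, so the lowest library was knock-in replicate 3. Gpr17, a receptor of committed precursors, stood at 29.7, 36.7 and 25.2 FPKM in knock-in and at 37.7, 39.8 and 38.5 FPKM in wild type. Tnr, a matrix protein, averaged 11.1 ± 0.399 FPKM in knock-in and 13.0 ± 0.595 FPKM in wild type, and Sox8, a glial transcription factor, 26.9 ± 2.64 FPKM in knock-in and 31.1 ± 1.21 FPKM in wild type (SD, n = 3 each). Pdgfra, the growth factor receptor of proliferating precursors, was close between groups, with means of 6.25 ± 0.302 FPKM in knock-in and 6.60 ± 0.0508 FPKM in wild type. Whether these cells carry the difference in Mki67 and Top2a was not tested.

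Tissue bordering the dissection varied more. The 13 measured choroid plexus genes, 10 of them under 1 FPKM with Folr1 and Kl among these, summed to 68.6 to 97.1 FPKM in knock-in and to 89.8 to 499 FPKM in wild type, the last from Ttr in replicate 2. Clic6, a chloride channel gene, averaged 4.10 ± 0.200 FPKM in knock-in and 4.86 ± 0.386 FPKM in wild type, and Enpp2, which makes lysophosphatidic acid, 68.8 ± 8.14 FPKM in knock-in and 86.3 ± 21.8 FPKM in wild type (SD, n = 3 each). All 3 tested, with Ttr, were lower, 0 were called in limma and 1, Clic6, had an unadjusted p under 0.05. Outside wild-type replicate 2, most of the choroid plexus sum was Enpp2, at 61.5 to 77.6 FPKM in knock-in. In wild-type replicates 1 and 3 Enpp2 was at 76.6 and 71.0 FPKM. Those sums rest mainly on 1 gene and do not measure choroid plexus alone. Without wild-type replicate 2 the median difference of the 9 genes was -0.25. Cortical genes were higher in 10 of 10 tested, with 0 called in limma and 0 at an unadjusted p under 0.05. The defining marker Tbr1 averaged 0.911 FPKM over the 6 libraries and was not tested. It stood at 2.37, 1.70 and 0.252 FPKM in knock-in and at 0.760, 0.251 and 0.136 FPKM in wild type. The listed cortical genes summed to 914 to 1148 FPKM in knock-in and 898 to 1007 FPKM in wild type. Most of that was Nrgn, a calmodulin-binding protein that striatal neurons express too, at 980 ± 107 FPKM in knock-in and 893 ± 46.0 FPKM in wild type (SD, n = 3 each). Neurod6, Neurod2 and Slc30a3, genes of cortical excitatory neurons, averaged 2.27, 1.55 and 2.62 FPKM in knock-in and 0.416, 0.510 and 0.608 FPKM in wild type. In knock-in replicates 1, 2 and 3, Slc17a7 at 29.9, 25.2 and 3.41 FPKM stood beside medians of -0.27, -0.09 and -0.26 of the 9 neuroblast and dividing-cell genes, and the part of cortical tissue in these was not tested.

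Genes of striatal projection neurons, the most numerous neurons of the tissue, were even, with 11 of 19 higher and a median of 0.01, 0 called in limma and 0 at an unadjusted p under 0.05. They summed to 3604 to 3987 FPKM in knock-in and 3648 to 3751 FPKM in wild type. Tac1, the substance P precursor, and Adora2a, an adenosine receptor, both of these neurons, had ratios of mean FPKM of 1.14 and 1.04.

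**Figure D4:**
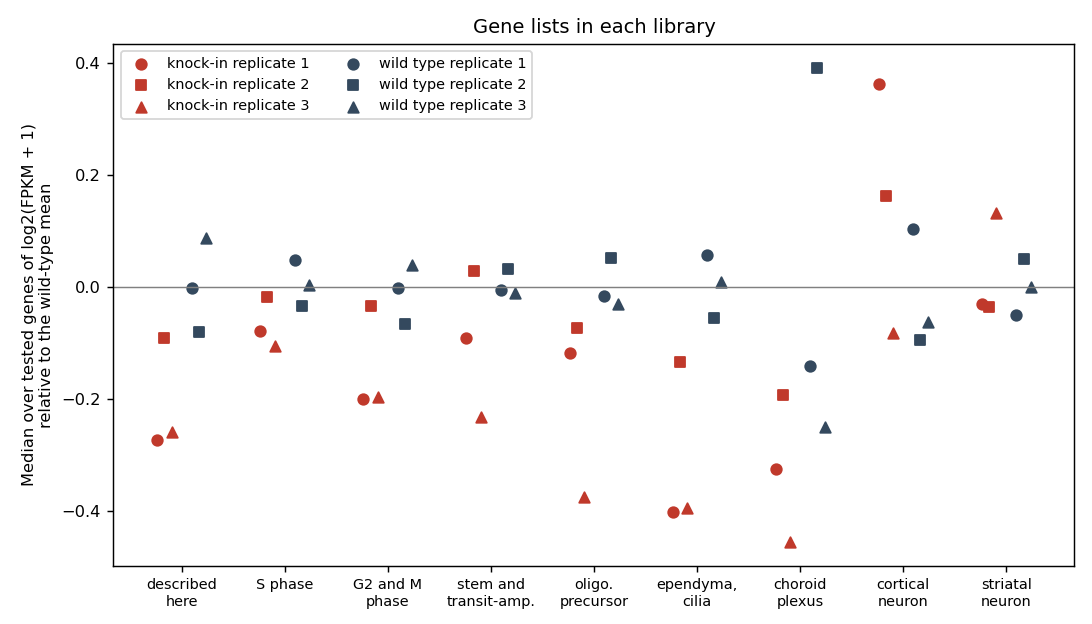
Median over tested genes of log2(FPKM + 1) relative to the wild-type mean (y axis) for 9 gene lists in the 3 knock-in (red, left in each list) and 3 wild-type (dark, right) libraries. The genes described here are low in knock-in replicates 1 and 3 (-0.27 and -0.26), as are G2 and M phase genes (-0.20 each) and ependymal genes (-0.40 each), while striatal genes stay between -0.05 and 0.13.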

How the data were processed

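Total RNA of dorsal striatum was sequenced by the authors from 3 knock-in and 3 wild-type samples, with a TruSeq kit per the labels' protocols. Per the file headers, the deposited values are FPKM, 1 column per library, matched to samples by their codes. The submitters' processing notes name FastQC, HISAT2, SAMtools and StringTie, without versions. The sources used here name no build, annotation or strand setting. The table holds 23067 genes and 0 values at 0, so a gene at exactly 0 in a library appears to have no row. No counts are given, so depth is unknown.

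Values were taken as log2(FPKM + 1), and genes averaging 1 FPKM or more were fitted with limma 3.58.1 in R 4.3.3 (trended, robust, two-sided, Benjamini-Hochberg adjustment over 14156 genes). The script was tested on simulated data. A set of 13 alternatives was run, and fits of Mki67 with no filter beside each other choice were added after the data were seen. The members and lists were chosen with earlier results of these data known. Named genes are the 10 members, for each list the 3 genes of lowest p, Ttr, Slc17a7 and Foxj1, and genes that overlap a member. Other genes named were chosen after their values were seen. Some genes that the rule takes are not reported here, and the counts of their lists include them. Positions are from GENCODE M21 by gene identifier and promoters from RefSeq by symbol, where 6 of 10 members matched. The labels do not say whether replicates are different animals, and p-values therefore reflect only how these samples vary, perhaps for technical reasons.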

Additional observations from a re-analysis of the deposited data

How the results depend on the processing

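In limma 0 of the 10 genes described here were called in any of the 13 alternatives. These tested all 10 with no filter, 3 at a minimum mean of 5 FPKM and 9 otherwise. Mki67, left out of those 9, was not called in added fits that set each other choice beside no filter. Igfbpl1, Sox11, Dlx1, Dlx2, Cd24a, Top2a and Mki67 stayed lower in every fit that tested them. The sign turned for Dcx without wild-type replicate 1 (-0.14), for Dlx5 without wild-type replicate 2 (-0.022), and for Dlx6 when that library (-0.0094) or knock-in replicate 3 (-0.028) was left out. With 1 library left out, the difference ranged from -0.14 to 0.21 for Dcx, -0.022 to 0.060 for Dlx5 and -0.028 to 0.081 for Dlx6. At a minimum mean of 5 FPKM, 3 of the genes were left (Dlx5, Dlx6 and Cd24a), with a median of 0.018 and 0 that did not overlap, by construction. Quantile normalization left 2 of 9 without overlap, where 5.15% of all genes did not overlap as lower, and the cause was not tested. With median-of-ratios size factors 4 of 9 did not overlap, where 4.84% of all genes did not overlap as lower. Leaving out 1 library gave 4 to 6 such genes of 9, with 10.6% to 16.3% of all genes as the background, and a median of -0.28 to -0.17. Over all genes, leaving out 1 library gave 3 to 14 calls, with 11, 14 and 6 for knock-in replicates 1, 2 and 3 and 8 for wild-type replicate 2. Replicate numbers were not treated as pairs, since the labels do not say that they pair animals. The deviations of same-numbered libraries correlated over genes at -0.01, -0.07 and 0.19. Those of differently numbered libraries correlated at -0.18 to 0.21, so these values cannot decide whether samples were paired. With a replicate block 2 genes were called in all and 0 of the 9, of which 2 had an unadjusted p under 0.05. The low levels of Mki67 and Top2a limit what these libraries can resolve.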
